A study of Mus musculus with 8 samples.

Results

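The Atg8 family holds the small ubiquitin-like proteins that coat the growing autophagosome. Its members in this data set are the LC3 genes Map1lc3a and Map1lc3b and the GABARAP genes Gabarap, Gabarapl1 and Gabarapl2. These 5 genes were taken by symbol from a table of 55276 gene symbols, and all 5 were among the 17344 genes with enough counts to be tested. They were measured by bulk RNA sequencing of esophageal epithelial cells from C57BL6 mice aged 14 to 15 weeks, with no genotype and no drug named in the labels. Cells that carried integrin beta-1 and excluded DAPI were sorted by Cyto-ID, a dye that stains autophagic vesicles, into a Cyto-ID Low and a Cyto-ID High fraction. There were 4 libraries per fraction, and each of 2 female and 2 male animals (Female1, Female2, Male1, Male2) gave both. The comparison asks whether transcripts of the proteins that build these vesicles differ between cells sorted by vesicle content.

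In autophagy the Atg4 proteases trim newly made Atg8 proteins to a C-terminal glycine, and a ubiquitin-like conjugation chain then joins that glycine to phosphatidylethanolamine in the membrane. The LC3 branch is best known for extending the membrane and the GABARAP branch for later steps up to fusion with the lysosome, and both bind the receptors that carry cargo. The lipid-bound protein, not the transcript, is what marks an autophagosome, and only transcripts were measured here.

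The feature that joins the family is the glycine codon near the end of each coding sequence, shown in capitals within the last 30 coding bases of each gene, stop codon included, as given by the GENCODE M21 transcripts.
Map1lc3a: tacgcctcccaagaaaccttcGGCttctga
Map1lc3b: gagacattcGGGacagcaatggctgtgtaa
Gabarap: tacagtgatgaaagcgtctatGGTctgtga
Gabarapl1: tacagtgatgaaagtgtctatGGAaaatga
Gabarapl2: tacagcggagagaacacttttGGCttctga
This codon was number 120 in both LC3 genes and number 116 in the 3 GABARAP genes. It was followed by 1 further codon before the stop in 4 members and by 5 in Map1lc3b. Aligned coding sequences were 76.5% identical between Map1lc3a and Map1lc3b and 74.9% between Gabarap and Gabarapl1. Gabarapl2 matched Gabarap at 63.5% and Gabarapl1 at 63.8% of aligned bases, and LC3 against GABARAP genes ran from 53.4% to 62.7%. The 5 genes lie on the plus strand of GRCm38, at chr2:155276297-155278073 (Map1lc3a), chr8:121590361-121598760 (Map1lc3b), chr11:69991143-69994951 (Gabarap), chr6:129533160-129542346 (Gabarapl1) and chr8:111940703-111953612 (Gabarapl2).

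The members split between the fractions in both directions. Gabarap, Gabarapl2 and Map1lc3a were higher in Cyto-ID High, Gabarapl1 was lower, and Map1lc3b was lower in every animal without passing the test. Thus 3 of the 5 members rose and 1 fell at an adjusted p under 0.05 (Benjamini-Hochberg over all genes, from the quasi-likelihood test of edgeR). By the same rule 23.4% of all tested genes were higher, 25.3% were lower and 48.7% passed in either direction. The median log2 fold change of the members was 0.62, and that of all tested genes was −0.09. This fit has sex and not the animal as a covariate, though each animal gave both fractions. With animals as blocks 3 members rose and 2 fell, Map1lc3b among them, beside 25.4% and 28.5% of all tested genes.

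Libraries held 26285150 to 29301054 counts, and the member with the fewest, Gabarapl2, had 459 to 721 in each. Of 10 markers of basal keratinocytes 10 were lower in High, with summed levels of 22349 to 26664 CPM (counts scaled to library size with TMM factors) in Low and 2844 to 4588 in High. Of 12 markers of the suprabasal layers 11 were higher, with sums of 10094 to 27576 and 148562 to 249093 CPM. Of 8 proliferation markers 8 were lower. Markers of the keratinocyte layers thus differed between the fractions together with the members, and their part in the members' differences was not tested. In bulk RNA, fewer cells of a type and less RNA per cell cannot be told apart.

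Gabarap, named for its binding to the GABA type A receptor, had the highest level of the family per kilobase of transcript (given further on). The Low libraries were at 118 CPM (Female1), 125 (Female2), 121 (Male1) and 149 (Male2). The High libraries, in the same order of animals, were at 228, 263, 209 and 288 CPM. Each High library lay above each Low library. The means were 128 ± 14 and 247 ± 35.5 CPM (SD, n = 4 each), and Gabarap rose 1.93-fold, a log2 change of 0.95 (SE 0.16, edgeR's adjusted p = 0.000824).

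Gabarapl2, also called GATE-16 and first described as a factor of transport within the Golgi, had the lowest level per kilobase. It was at 16.7, 14.2, 16.5 and 15.2 CPM in the Low libraries of Female1, Female2, Male1 and Male2. The High libraries had 24.3, 31.4, 24.7 and 23.6 CPM. The fractions did not overlap, and the High library of Female2 stood above the other 3. Gabarapl2 rose 1.66-fold, by 0.73 (SE 0.14, edgeR's adjusted p = 0.00203), from 15.6 ± 1.2 to 26.0 ± 3.6 CPM (SD, n = 4 each). Without both libraries of Female2 the rise was 0.62 (edgeR adjusted p 0.00878).

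Map1lc3a encodes LC3A. Its Low libraries were at 53.7, 46.1, 47.5 and 61.9 CPM in Female1, Female2, Male1 and Male2, and its High libraries at 76.4, 74.7, 69.3 and 103 CPM. Male2 was highest in both fractions, and no High library fell within the range of Low. Map1lc3a rose 1.54-fold, by 0.62 (SE 0.16, edgeR's adjusted p = 0.00932), from 52.3 ± 7.2 to 80.8 ± 14.8 CPM (SD, n = 4 each). The increase per animal ran from 0.51 log2 CPM in Female1 to 0.73 in Male2. With Gabarap and Gabarapl2, 3 of the 5 members were higher in High with no overlap between the fractions, as 23.6% of all tested genes were, and 48.6% did not overlap in either direction.

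Gabarapl1, a close relative of Gabarap also known as GEC1, went the other way. It was at 91.9, 69.2, 94.8 and 104 CPM in the Low libraries of Female1, Female2, Male1 and Male2, and at 69.0, 56.2, 59.4 and 79.1 CPM in the High libraries. High was below Low in all 4 animals, but the ranges overlapped, since the Low library of Female2 lay within the range of High. Gabarapl1 fell from 89.9 ± 14.7 to 65.9 ± 10.3 CPM (SD, n = 4 each), for a log2 change of −0.44 (SE 0.16, edgeR's adjusted p = 0.0409). This call was close to the threshold. It was lost with RLE size factors (edgeR adjusted p 0.0757) and in DESeq2 (adjusted p 0.0673). It was also lost when Low Female1, High Female2, Low Male1, High Male1 or Low Male2 was left out, with edgeR adjusted p of 0.0842, 0.101, 0.0612, 0.125 and 0.0937 on fewer libraries.

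Map1lc3b encodes LC3B, the form most often followed as a marker of autophagosomes. Its Low libraries had 98.6, 112, 107 and 138 CPM in Female1, Female2, Male1 and Male2, and its High libraries 78.3, 89.6, 80.7 and 116 CPM. High was lower in all 4 animals by 0.25 to 0.41 log2 CPM, while the animals' levels overlapped between the fractions. The log2 fold change of −0.32 (SE 0.16) did not pass (edgeR adjusted p 0.127), and a fit with animals as blocks gave −0.33, which passed (edgeR adjusted p 0.0316). An increase of Map1lc3b with vesicle content was therefore not seen at the transcript level in any of the 4 animals.

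**Figure D1:**
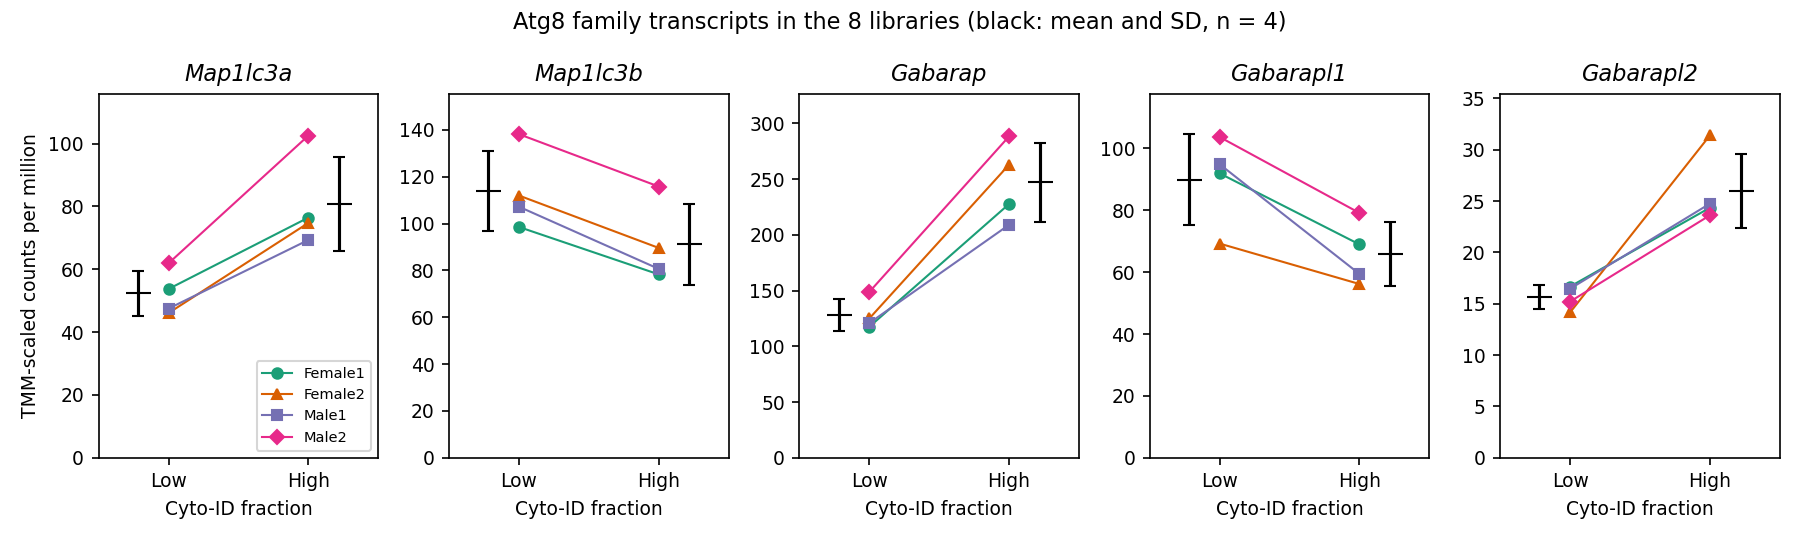
TMM-scaled CPM of each member (linear axes from 0) in Cyto-ID Low and High, with a line per animal and the mean and SD of 4 libraries in black. Lines rise in all 4 animals for Map1lc3a, Gabarap and Gabarapl2 and fall in all 4 for Map1lc3b and Gabarapl1, although Map1lc3b did not pass the test.

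The values above use TMM scaling, which sets a trimmed mean of all genes level between libraries. Scaling by total counts alone moved the median log2 fold change of all tested genes by −0.55. On that scale Gabarap was still higher, at 0.37 (edgeR adjusted p 0.0191). Map1lc3a and Gabarapl2 no longer passed, at 0.050 and 0.17 (edgeR adjusted p 0.743 and 0.333), and Map1lc3b and Gabarapl1 passed as lower, at −0.91 and −1.01 (edgeR adjusted p 0.000238 and 0.000418). A change of scaling shifts all genes by nearly the same amount, and subtracting their median takes that shift out. By construction, therefore, values relative to the median of all genes hardly differ between the main and the total-count scaling. They were 1.04 and 1.01 for Gabarap, 0.82 and 0.80 for Gabarapl2, 0.72 and 0.69 for Map1lc3a, −0.35 and −0.37 for Gabarapl1, and −0.23 and −0.27 for Map1lc3b. The sign of each member was the same under RLE, TMM and total-count scaling.

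**Figure D2:**
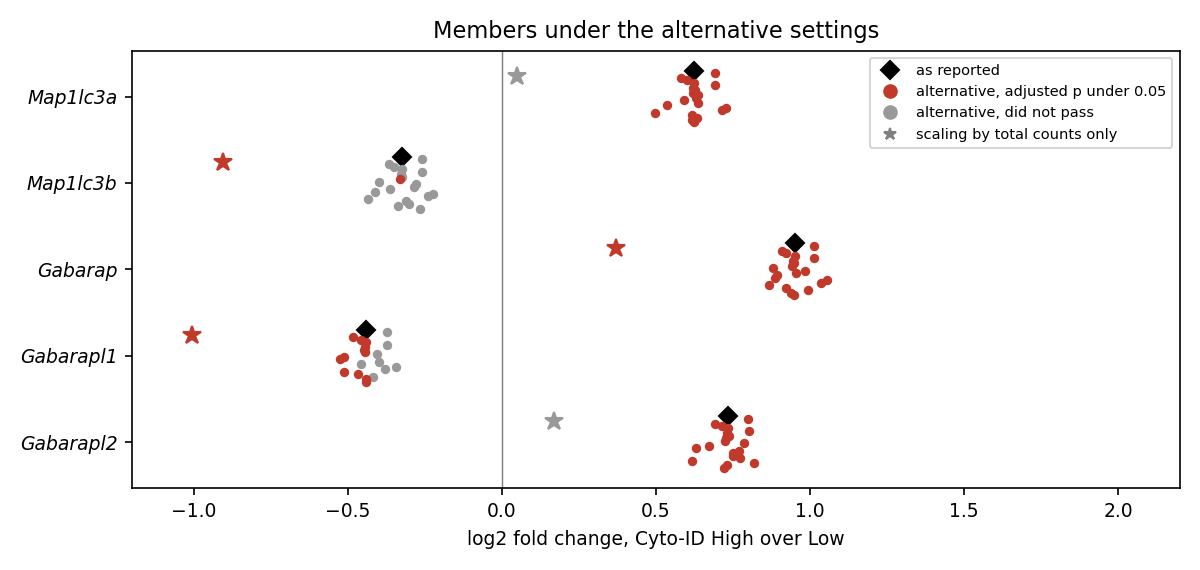
Log2 fold change of Cyto-ID High over Low for each member as reported (diamond) and under each alternative, including every left-out library; stars mark scaling by total counts and colour shows whether the adjusted p was under 0.05. No member changes sign, and the total-count values lie to the left of the others for each gene.

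Ratios between members within a library need no scaling. The log2 ratio of Gabarap to Map1lc3b counts was 0.25, 0.16, 0.17 and 0.11 in the Low libraries of Female1, Female2, Male1 and Male2, and 1.54, 1.55, 1.37 and 1.32 in the High libraries. In counts, Gabarap was 1.08 to 1.19 times Map1lc3b in Low and 2.49 to 2.93 times in High. The pairs were sorted after the members' values were seen. The other ratios of Gabarap, Gabarapl2 or Map1lc3a to Map1lc3b or Gabarapl1 shifted in the same way. The log2 ratio of Gabarap to Gabarapl1 went from 0.52 ± 0.24 to 1.91 ± 0.22, and that of Map1lc3a to Map1lc3b from −1.12 ± 0.17 to −0.17 ± 0.10 (SD, n = 4 each). All 6 ratios of this kind lay apart between the fractions. The ratio of Gabarapl1 to Map1lc3b overlapped (−0.35 ± 0.27 and −0.46 ± 0.21), as did those of Gabarapl2 to Map1lc3a and of Gabarap to Gabarapl2. The ratio of Gabarap to Map1lc3a rose from 1.30 ± 0.13 to 1.62 ± 0.14 without overlap. The 10 ratios share their 5 genes and are given as a description, with no test.

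**Figure D3:**
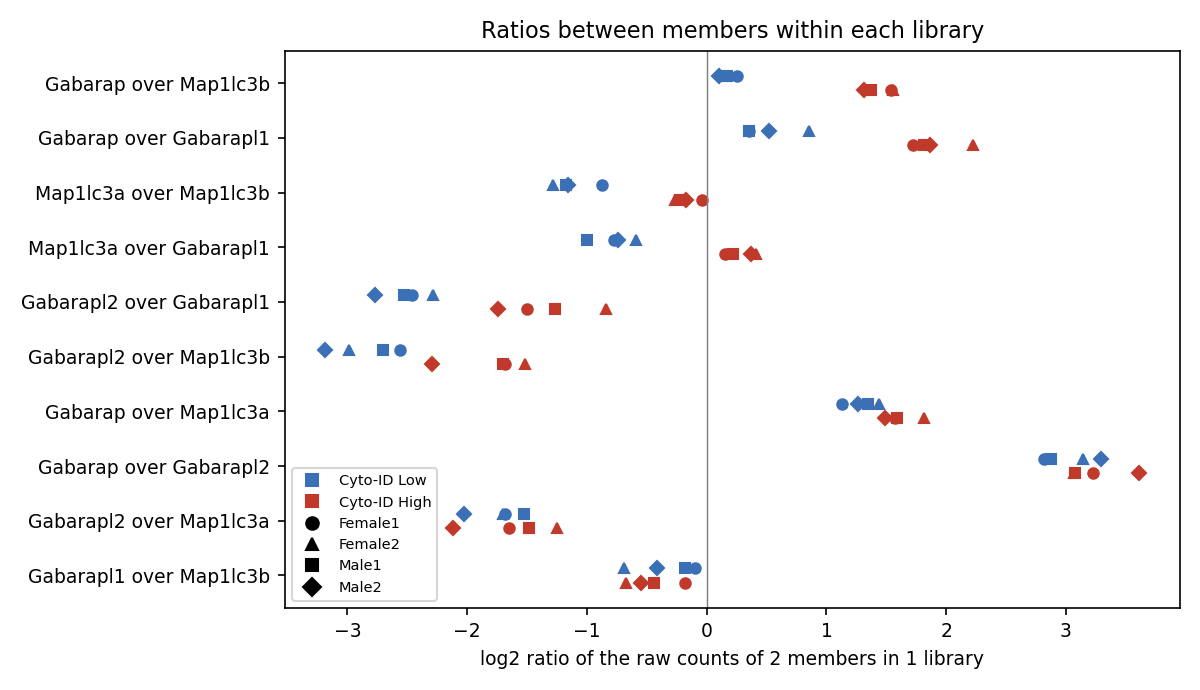
Log2 ratio of the raw counts of 2 members in each library, for the 10 pairs of members, with Cyto-ID Low in blue, High in red and a marker shape per animal. The top 6 rows, each Gabarap, Gabarapl2 or Map1lc3a over Map1lc3b or Gabarapl1, show separate blue and red ranges, and the lowest row, Gabarapl1 over Map1lc3b, shows ranges that overlap.

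Levels of different genes were compared per kilobase of the principal transcript, whose length runs from 1112 bases in Map1lc3a to 2532 in Map1lc3b. In Cyto-ID Low, Gabarap led at 94.8 ± 10.5 CPM per kilobase (SD, n = 4). Gabarapl1 at 49.4 ± 8.1, Map1lc3a at 47.0 ± 6.5 and Map1lc3b at 45.0 ± 6.7 did not differ beyond their spread, and Gabarapl2 was lowest at 9.32 ± 0.70. In Cyto-ID High, Gabarap was at 183 ± 26 CPM per kilobase and Map1lc3a, now clear of the next, at 72.6 ± 13.3. Gabarapl1 at 36.2 ± 5.7 and Map1lc3b at 36.0 ± 6.8 were level, and Gabarapl2 stood at 15.5 ± 2.2. The share of Gabarap in the summed family went from 38.6% ± 1.8 to 53.3% ± 1.9. That of Gabarapl1 went from 20.1% ± 2.3 to 10.6% ± 1.2 and that of Map1lc3b from 18.3% ± 1.4 to 10.4% ± 0.7. Map1lc3a held 19.1% ± 1.1 in Low and 21.1% ± 1.3 in High. The summed family was at 246 ± 28 CPM per kilobase in Low and 343 ± 48 in High with TMM scaling. Scaled by total counts alone it was at 298 ± 23 in Low and 280.2 ± 15.9 in High (SD, n = 4 each), and High was below Low in 3 of 4 animals. The direction of the summed family thus depends on the scaling, while the members' shares do not use it. These orders and shares depend on the length used. With all annotated exons merged Map1lc3b spans 7517 bases, and its level was 15.2 ± 2.3 in Low and 12.1 ± 2.3 CPM per kilobase in High, with shares of 8.41% ± 0.74 and 4.67% ± 0.31.

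Processed pseudogenes, which are reverse-transcribed copies of a messenger RNA inserted elsewhere in the genome, share sequence with some members. In GENCODE M21, with at least 85% identity over 150 bases, there were 6 such copies of Gabarapl2, 5 of Map1lc3b, 1 of Gabarap and 0 of Map1lc3a and Gabarapl1. The closest to Gabarapl2 is Gm3724 (chr5:24118316-24118664, minus strand, GRCm38), which matches 347 of 349 aligned bases. The closest to Map1lc3b is Gm6055 (chr14:48079375-48079752, minus strand), which matches 377 of 378. Windows of 41 bases around the first difference, in capitals, show how little sets them apart.
Gabarapl2: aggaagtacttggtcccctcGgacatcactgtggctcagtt
Gm3724: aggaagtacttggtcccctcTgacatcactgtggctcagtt
Map1lc3b: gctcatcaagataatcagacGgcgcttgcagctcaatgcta
Gm6055: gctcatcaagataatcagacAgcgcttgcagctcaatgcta
Counted from the first base of the start codon, with the parent's base first, the differences are G159T and T300G in Gm3724 and G206A in Gm6055.

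These copies took many counts. Gm3724 had 4425 counts over the 8 libraries beside 4549 of Gabarapl2, or 97.3%, and Gm6055 had 8600 beside 23754 of Map1lc3b, or 36.2%. How the counting divided reads between copies is not given in the sources used here, so the levels of Gabarapl2 and Map1lc3b are uncertain. Gm3724 went from 15.2 ± 1.8 to 25.2 ± 1.3 CPM (SD, n = 4 each), or 0.73 in log2 (SE 0.14, edgeR's adjusted p = 0.00181) beside 0.73 for its parent. Another copy, Gm6051, rose by 0.69 (SE 0.24, edgeR's adjusted p = 0.0369), and the third copy of Gabarapl2 that was tested, Gm5829, did not pass, at 0.40 (SE 0.33, edgeR's adjusted p = 0.355). The other 2 tested copies of Map1lc3b, Gm6054 and Gm12727, did not pass either, at −0.17 and −0.22 (edgeR adjusted p 0.633 and 0.541). Gm6055 did not pass, at −0.13 (SE 0.16, edgeR's adjusted p = 0.572). With the counts of the copies added to the parent gene, Gabarapl2 rose by 0.72 (SE 0.13, edgeR's adjusted p = 0.00118), and Map1lc3b was at −0.27 (SE 0.17, edgeR's adjusted p = 0.218). The copy of Gabarap, Gm45678, had 3 counts in all, and Gabarap was again at 0.95 with them added. Exons of Map1lc3b share 58 bases with Zcchc14 and those of Gabarapl1 share 570 bases with 1700101I11Rik, both on the other strand. The latter had 50 counts in all against 18154 of Gabarapl1.

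**Figure D4:**
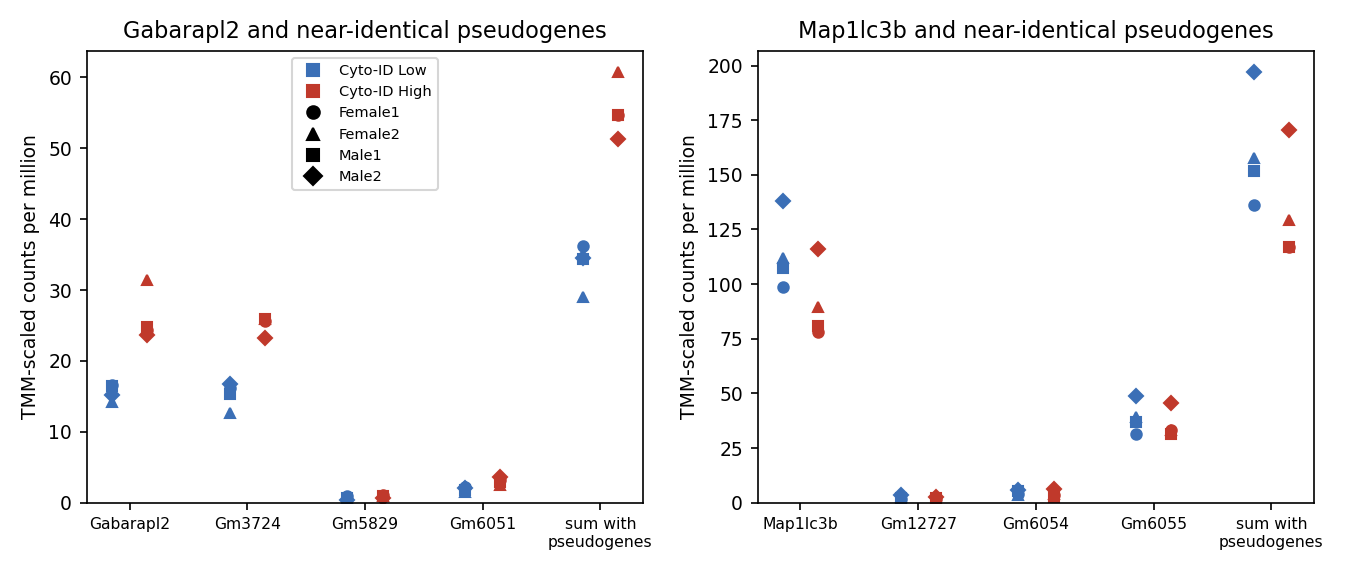
TMM-scaled CPM (linear axes from 0) of Gabarapl2 and Map1lc3b, of those of their processed pseudogenes with enough counts to be tested, and of the sum of each gene with all its pseudogenes; Cyto-ID Low is blue, High is red and each animal has a marker. Gm3724 lies near the height of Gabarapl2 in both fractions, and the fractions overlap for Gm6055.

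The difference between fractions was also examined by sex. The male minus female difference in log2 fold change ran from −0.24 (SE 0.30) for Gabarapl2 to 0.052 (SE 0.35) for Map1lc3a. No member passed this interaction, each with an edgeR adjusted p of 1.00, and 0 of 17344 genes did, with 19 at an unadjusted p under 0.05 (38 with animals as blocks). Both counts lie far below the share of 0.05 given by chance alone, so this test was stricter than its threshold states. The empty result therefore does not show that the sexes are alike. With 2 animals per sex, a difference the size of these standard errors was not detectable.

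Gabarap and Gabarapl1, the closest pair of the GABARAP branch, moved in opposite directions, and so the 300 bases around their starts (250 before, 50 after) are shown, from RefSeq on GRCm38.p6, plus strand. Capitals mark matches to any of the 9 motifs searched on both strands.
Gabarap: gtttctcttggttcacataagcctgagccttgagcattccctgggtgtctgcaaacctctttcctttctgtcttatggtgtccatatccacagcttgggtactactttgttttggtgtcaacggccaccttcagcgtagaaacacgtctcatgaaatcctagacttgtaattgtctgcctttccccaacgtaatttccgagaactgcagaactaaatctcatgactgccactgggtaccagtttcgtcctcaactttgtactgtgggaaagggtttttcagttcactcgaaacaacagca
Gabarapl1: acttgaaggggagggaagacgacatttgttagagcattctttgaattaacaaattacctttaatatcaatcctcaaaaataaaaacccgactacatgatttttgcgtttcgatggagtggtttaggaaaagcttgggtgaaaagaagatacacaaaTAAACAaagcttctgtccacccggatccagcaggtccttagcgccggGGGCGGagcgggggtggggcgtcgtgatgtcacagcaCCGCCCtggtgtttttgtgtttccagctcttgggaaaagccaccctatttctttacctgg
The Gabarap window is chr11:69991120-69991419 and that of Gabarapl1 is chr6:129532942-129533241. GENCODE M21 starts Gabarap at base 69991143, close to the first base of its RefSeq window. By that model most of the window lies after the start of the gene and little of it before. Windows of 4 members were found, and none was given for Map1lc3a.

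The GC box GGGCGG, present in 35.7% of 32851 promoter windows of this length, matched in the windows of Gabarapl1, Gabarapl2 and Map1lc3b and had no match in that of Gabarap. Since the Gabarap window lies mostly after the GENCODE start, its motifs and base content say little of the bases before that start. The forkhead core TGTTTA, present in 13.4%, matched on the other strand at position 157 of the Gabarapl1 window, while the longer TGTTTAC, present in 3.65%, had no match in the 4 windows. ACGTCA, the shorter form of the cAMP response element and present in 7.51%, matched once, in Gabarapl2, and the full TGACGTCA (1.79%) did not. The CLEAR palindrome bound by Tfeb (0.326%), its E-box centre CACGTG (7.15%), TGANTCA of AP-1 (7.81%) and TATAAA (13.6%) had no match in the 4 windows. Where motifs overlap, as the shorter and longer forms do, a match was counted for each. G and C made up 45.7% of the Gabarap window, 46.3% of that of Gabarapl1, 60.0% of that of Gabarapl2 and 68.0% of that of Map1lc3b, beside a median of 52.7% over all windows.

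The genes that act on the Atg8 proteins were described from 7 lists with 68 genes, all of them tested. Over the lists, 25 genes were higher, 9 were lower and 34 did not pass, with a median log2 fold change of 0.23. The 34 that passed, or 50.0%, stand beside 48.7% of all tested genes. Under total counts, where all genes shift down as given above, 10 were higher and 30 lower, beside 12.6% higher and 49.1% lower of all tested genes. Relative to the median of all genes, the lists' median was 0.32 with TMM and 0.28 with total counts. As for the members, such relative values agree nearly by construction, here and for each list below. With animals as blocks 28 were higher and 13 lower, beside 25.4% and 28.5% of all tested genes. All values in the next paragraphs come from the same edgeR fit as those of the members.

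The Atg4 proteases process Atg8 proteins before conjugation and release them from membranes afterwards. Of the 4 genes 3 rose and 1 fell, with a median of 0.51. Under total counts 0 were higher and 1 lower, while the median relative to all genes was 0.60 with TMM and 0.57 with total counts. Atg4b, the main protease of the family, rose from 35.8 ± 3.3 to 52.5 ± 5.7 CPM (SD, n = 4 each), by 0.55 (SE 0.13, edgeR's adjusted p = 0.00548), a value of −0.019 under total counts. Atg4a rose by 0.77 (SE 0.23, edgeR's adjusted p = 0.0195) from a low level of 2.39 CPM and did not pass under total counts, at 0.18. Atg4d rose by 0.47 (SE 0.15, edgeR's adjusted p = 0.0297) and was at −0.11 under total counts. The calls of Atg4a and Atg4d were close to the threshold. With High Female2, Low Male1 or High Male2 left out neither passed, with edgeR adjusted p of 0.0640, 0.0585 and 0.0553 for Atg4a and 0.0570, 0.0736 and 0.0762 for Atg4d, so that 1 of the 4 genes was higher, and the same held with no filter on low counts (0.0660 and 0.0776). Higher in those fits were 19.6%, 20.4% and 20.5% of all tested genes, and 11.5% with no filter. Atg4a also did not pass without Low Female1 (edgeR adjusted p 0.0502) or without both libraries of Female2, and Atg4d without both of Male2. Atg4c fell from 9.41 ± 1.18 to 4.46 ± 0.50 CPM, by 1.08 on the log2 scale (edgeR adjusted p 0.000603).

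In the conjugation list 1 of 8 genes rose and 3 fell, with a median of 0.023. Under total counts 0 were higher and 6 lower, and the median relative to all genes was 0.11 with TMM and 0.084 with total counts. Atg3, the E2-like enzyme that hands Atg8 to the lipid, rose from 52.8 ± 7.7 to 85.9 ± 12.6 CPM (SD, n = 4 each), by 0.71 (SE 0.16, edgeR's adjusted p = 0.00498). Under total counts Atg3 was at 0.13 and did not pass (edgeR adjusted p 0.381). The E1-like Atg7 was at 0.22 (SE 0.18), and Atg12, Atg5 and Atg10 were at 0.18, 0.013 and 0.033, none of which passed. Under total counts Atg7, Atg5 and Atg10 passed as lower, at −0.37, −0.55 and −0.55. Atg16l1, which brings the Atg12-Atg5 conjugate to the membrane, fell from 26.8 ± 2.6 to 16.6 ± 0.8 CPM, for −0.70 in log2 (SE 0.13, edgeR's adjusted p = 0.00157). Its paralog Atg16l2 changed by −1.72 (SE 0.39, edgeR's adjusted p = 0.00472), and Tecpr1, which also binds Atg5, by −1.04 (SE 0.14, edgeR's adjusted p = 0.000274).

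Cargo receptors bind Atg8 proteins through a short motif. Of 17 genes 4 rose, 2 fell and 11 did not pass, with a median of −0.07. The median relative to all genes was 0.025 with TMM and −0.018 with total counts. Under total counts 3 were higher and 7 lower, and with animals as blocks 6 were higher and 3 lower. Sqstm1, the ubiquitin-binding receptor p62, rose by 1.41 (SE 0.26, edgeR's adjusted p = 0.00156). Tollip rose from 165 ± 44 to 437 ± 80 CPM (SD, n = 4 each), by 1.40 (SE 0.22, edgeR's adjusted p = 0.000603). Wdfy3, a large scaffold of aggregate clearance, rose from 38.4 ± 5.0 to 137 ± 14 CPM, by 1.83 (SE 0.15, edgeR's adjusted p = 2.01e-05). Tex264, a receptor for the endoplasmic reticulum, rose by 0.49 (edgeR adjusted p 0.0282) and was at −0.09 under total counts. It did not pass without Low Female1, High Female2, Low Male1 or High Male2 (edgeR adjusted p 0.0739, 0.0669, 0.0855 and 0.0854), without both libraries of Female2, or with no filter on low counts. Stbd1, which tethers glycogen, fell from 9.12 ± 3.24 to 1.44 ± 0.21 CPM, that is by 2.64 on the log2 scale (SE 0.24, edgeR's adjusted p = 2.53e-05). Fundc1, a mitochondrial receptor, changed by −0.61 (SE 0.20, edgeR's adjusted p = 0.0303). The call of Fundc1 ended without High Female1, Low Female2, Low Male1, High Male1, Low Male2 or High Male2 (edgeR adjusted p 0.0774, 0.0951, 0.0549, 0.0873, 0.0823 and 0.0656) and without both libraries of Male2 (0.149).

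Upstream of the Atg8 proteins, 3 of 13 genes of the initiation and phosphoinositide 3-kinase complexes rose and 1 fell, with a median of 0.24. The median relative to all genes was 0.33 with TMM and 0.30 with total counts. Under total counts 1 was higher and 8 were lower, and with animals as blocks 3 were higher and 3 lower. Atg13, a partner of the Ulk1 kinase, rose from 45.0 ± 2.0 to 118 ± 19 CPM (SD, n = 4 each), by 1.39 (SE 0.14, edgeR's adjusted p = 5e-05). Rubcn and Becn1 rose by 0.66 and 0.64, calls that were lost under total counts at 0.082 and 0.061 (edgeR adjusted p 0.569 and 0.617). Pik3r4, the regulatory subunit of Vps34, changed by −0.63 (edgeR adjusted p 0.015). Of 10 genes of membrane expansion 5 rose and 1 fell, with a median of 0.21. Under total counts 2 were higher and 3 lower, and the median relative to all genes was 0.30 with TMM and 0.29 with total counts. Atg9a, Tmem41b and Atg9b, which encode lipid scramblases, rose by 1.12, 1.07 and 1.00, and Wdr45 changed by −0.60 (edgeR adjusted p 0.00791) and did not pass without both libraries of Female2 or of Male2 (0.0580 and 0.0513). Under total counts Atg9b was at 0.48 and did not pass (edgeR adjusted p 0.163). Atg2b rose by 0.48 but was at −0.08 under total counts, and did not pass with no filter on low counts (edgeR adjusted p 0.0631). With no such filter 3 genes of the expansion list were higher and 2 lower, beside 11.5% and 13.5% of all tested genes. In DESeq2 5 of the initiation list were higher, beside 25.8% of all tested genes.

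Of 10 genes of fusion with the lysosome 7 rose, 0 fell and 3 did not pass, with a median of 0.81. Under total counts 2 were higher and 1 lower, and the median relative to all genes was 0.90 with TMM and 0.85 with total counts. Snap29, a member of the fusion complex, rose from 19.0 ± 2.3 to 50.6 ± 7.6 CPM (SD, n = 4 each), by 1.41 (SE 0.16, edgeR's adjusted p = 6.89e-05). Its partner Stx17 rose by 0.94, Ykt6, another fusion protein of the autophagosome, by 1.07, and Vps41, a subunit of the tethering complex HOPS, by 0.89. Under total counts Stx17 and Vps41 did not pass, at 0.35 and 0.29 (edgeR adjusted p 0.0783 and 0.145). Of 6 transcription factors of autophagy genes 2 rose and 1 fell, with a median of −0.34. Relative to all genes it was −0.25 with TMM and −0.27 with total counts, where 2 were higher and 4 lower, and with animals as blocks 2 were higher and 2 lower. Tfe3 and Foxo3 rose by 0.98 and 0.95 (edgeR adjusted p 0.0029 and 0.00142), Foxo1 changed by −0.96 (edgeR adjusted p 0.000426), and Tfeb at −0.30 (SE 0.19) did not pass, except under total counts at −0.90. Exons of Atg4d, Atg16l2, Sqstm1, Wdfy3, Rubcn, Becn1, Atg9a, Atg9b, Wdr45, Atg2b, Snap29 and Foxo1 overlap those of other genes in GENCODE M21. Whether the counting used the strand is not given in the sources used here, so reads of these genes are uncertain.

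**Figure D5:**
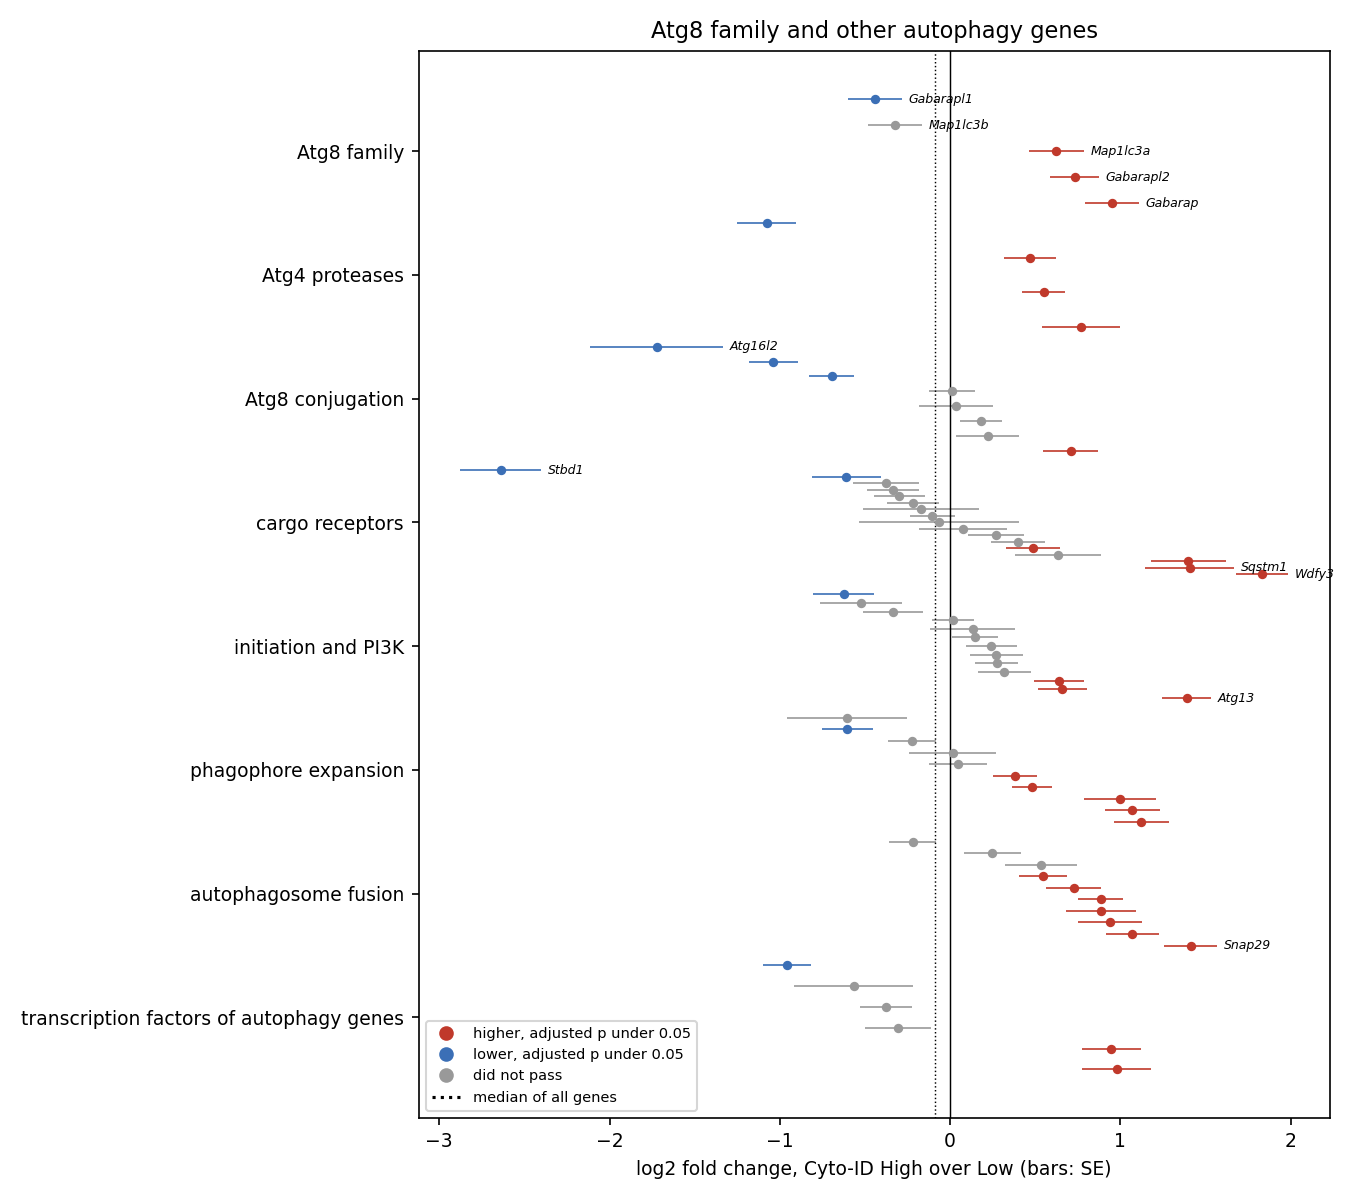
Log2 fold change of Cyto-ID High over Low with its standard error for the 5 members and the 68 other autophagy genes, grouped by role; red and blue passed the test as higher and lower, grey did not pass, and the dotted line is the median of all tested genes at −0.09. The members fall on both sides of 0, and no gene of the fusion list is blue.

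For each member the 3 genes with the most similar log2 CPM over the 8 libraries were found among 10002 genes with a mean of at least 5 CPM, by Pearson's r. The libraries form 2 fractions and share scaling, so r takes in the difference between fractions and is a description. Gabarap was most like Ssu72, a phosphatase of RNA polymerase II (r = 0.997), Csnk2b, the regulatory subunit of casein kinase 2 (0.997), and Mapk3, the kinase ERK1 (0.995). Gabarapl2 was most like Psmd14, a proteasome subunit (0.996), Cops5 of the COP9 signalosome (0.991) and Yipf5 of the secretory pathway (0.990). Map1lc3a was most like Wsb2 (0.990), Fitm2 (0.987) and Arf5 (0.985). Gabarapl1 followed Tubb6 (0.985), Furin (0.983) and Cox4i1 (0.974), and Map1lc3b followed Numbl (0.982), Eif3f (0.981) and Rpl21-ps15 (0.980). When each library was taken as its deviation from the fraction mean, Psmd14 was again nearest to Gabarapl2 (r = 0.982) and Ssu72 was again among the 3 nearest to Gabarap (0.973), and no other gene was named by both measures.

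Summed markers of other cell types overlapped between the fractions. Summed over 8 fibroblast markers, levels were 387 to 559 CPM in Low and 57.2 to 479 in High, lowest in High Male2, and 2 of the 8 were lower in High. The part of other cell types in the members' values was not tested. Over 8 leukocyte markers they were 52.2 to 86.3 and 9.21 to 87.1 CPM, over 8 endothelial markers 16.4 to 31.4 and 2.73 to 40.2, and over 8 muscle markers 35.0 to 56.7 and 5.04 to 50.1. Neural and Schwann cell markers, relevant because Map1lc3a is abundant in nervous tissue, summed to 11.0 to 16.3 CPM in Low and 5.76 to 28.4 in High, and melanocyte markers to 6.18 to 8.89 and 1.39 to 8.57. Of these lists, 1 leukocyte marker was higher, 1 muscle and 1 melanocyte marker were lower, and no endothelial, neural or Schwann cell marker passed. Of all tested genes 23.4% were higher and 25.3% lower. Without both libraries of Male2, where these markers were lowest in High, Map1lc3a was at 0.63, Gabarap at 0.99 and Gabarapl2 at 0.82, each passing, and Gabarapl1 was at −0.42 and did not pass (edgeR adjusted p 0.111), so that 3 members were higher and 0 lower. Of all tested genes 20.4% were higher and 20.7% lower in that fit. Without both libraries of Female2, 3 members were higher and 1 lower, beside 21.6% and 21.7% of all tested genes. Genes of the dissociation stress response summed to 15305 to 19092 CPM in Low and 9960 to 21058 in High, with 1 of 10 higher and 2 lower. None of the markers named by these lists was at 0 in all libraries.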

How the data were processed

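The authors deposited raw counts, as 1 table of gene symbols by 8 libraries whose whole numbers sum to a different total in each. The submitters' processing notes name STAR 2.7.3, DESeq2 and the build GRCm38, without a role. The counter, annotation and strandedness are not given in the sources used here. Columns were matched to samples by animal and fraction.

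Genes were kept by filterByExpr, library totals were taken over the 17344 kept genes and scaled by TMM, a trimmed mean of log ratios, and Cyto-ID High was tested against Low with glmQLFit and glmQLFTest in edgeR 4.0.16 (R 4.3.3) with sex as a covariate, two-sided, with Benjamini-Hochberg adjustment and a threshold of 0.05. Standard errors are the fold change divided by the root of F, and log2 CPM have a prior count of 2. Alternatives used DESeq2 1.42.0, limma 3.58.1, other scalings, filters and covariates, and left-out libraries. The fit was tested on simulated data with few changed genes. There the smallest changes set, larger than those of Map1lc3b and Gabarapl1, were not recovered. Changes as large as the largest of the members were recovered in part, and less often with animals as blocks.

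Both libraries of an animal carry its name and were taken as a pair. Their deviations from the fraction mean correlated at 0.43 (Female1), 0.32 (Female2), −0.016 (Male1) and 0.28 (Male2) across genes, and High Male1 correlated at 0.35 with Low Female1. The pairing rests on the names, and for Male1 the data do not bear it out.

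Gene models, coding sequences and pseudogenes came from GENCODE M21 (GRCm38), searched with BLAST 2.17.0, and promoters from RefSeq (GRCm38.p6). The members, gene lists and tests were chosen with earlier results of these data known. Named were the 5 members, every Atg4 and conjugation gene, up to 4 passing genes per direction in other lists, and the 3 genes most like each member. Tfeb and Itgb1 were named outside this rule, after their values were seen.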

Additional observations from a re-analysis of the deposited data

Results flagged for a closer look

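In 17 groups of 4 values (each member's CPM in Low, in High and its difference per animal, and the family sum in each fraction) the highest and lowest were compared with their neighbours by Dixon's criterion. About 1 in 20 groups would exceed it by chance. Here 2 exceeded it, both for Gabarapl2 in Female2. Both take in the value of High Female2, so they are not independent, and other groups of the 17 share values in the same way. Gabarapl2 was at 31.39 CPM in High Female2, beside 24.3, 24.7 and 23.6 CPM in the other High libraries, and the increase in this animal was 1.145 log2 CPM, beside 0.54, 0.59 and 0.63. Its pseudogene Gm3724 was at 25.9 CPM in High Female2, beside 25.7, 25.9 and 23.2 in the others. As a log2 ratio of High to Low CPM, Gm3724 was also highest in Female2, at 1.03 beside 0.66, 0.76 and 0.47. Markers of gastric epithelium (8 genes) summed to 18.6 CPM in Low Female2 and 115 in High Female2, and to at most 1.03 CPM in any other library. Their part in the value of Gabarapl2 was not tested.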

How the results depend on the processing

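Of 21 alternatives per member, 2 of which (library totals over all genes, and pseudogene counts added to the parent) were chosen after seeing the data, none reversed a direction. Gabarap kept its call in all 21, with log2 fold changes of 0.37 to 1.05. Under scaling by total counts Map1lc3a (0.050) and Gabarapl2 (0.17) no longer passed and Map1lc3b (−0.91) did, and in the other 20 alternatives the first 2 passed. With the animal as a replicate block Map1lc3b passed at −0.33, and the block changed no other call of a member. Gabarapl1 did not pass with RLE size factors (−0.37), in DESeq2 (−0.37) or without both libraries of Male2 (−0.42), nor in 5 of 8 fits that left out a library. All 8 of those fits ran from −0.53 to −0.34, and the 5 that did not pass from −0.46 to −0.34. The adjusted p of Map1lc3b ran from 0.000238 to 0.311. The number of genes called was 8440 and ran from 7269 to 10708, and total-count scaling put 20.5% of them on the higher side in place of 48.0%. The interaction with sex called 0 members in each of the 3 alternatives, with a smallest unadjusted member p of 0.343.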
